A study of Mus musculus with 18 samples.

Results

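The 10 genes described here belong to the ATF4 branch of the integrated stress response and were followed across total and polysome-bound RNA of mouse myeloid cells. They were chosen by name: Atf4, Atf5, Ddit3, Ppp1r15a, Trib3, Chac1, Asns, Sesn2, Ddit4 and Psat1. These 10 symbols matched 11 of the 54838 gene identifiers in the count table, since Ddit3 has an additional identifier for a 105-base model of its upstream reading frame. That model had 0 counts in all 18 libraries and was not tested. The other 10 passed the filter on low counts and were among the 14181 genes tested.

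The cultured cells were MDSC, the myeloid-derived suppressor cells known for restraining T cells. They were differentiated from bone marrow of wild-type C57BL/6 mice for 5 days and sorted on Cd11b, Ly6G and Ly6C. The LY6G cells were high for Cd11b and Ly6G and intermediate for Ly6C, and the LY6C cells were high for Cd11b and Ly6C and negative for Ly6G. Sorted cells were plated and taken the next day after cycloheximide, which halts ribosomes on their mRNA. The BM samples were marrow flushed from femurs of 3 mice of the same strain, with red cells lysed, so they were neither cultured nor sorted. Each kind of cell gave 3 libraries of polysomal RNA (P), pooled from sucrose gradient fractions of mRNA carrying several ribosomes, and 3 of total RNA (T). Sorted libraries carry the numbers 2, 3 and 6 and BM libraries the numbers 1, 2 and 3, and their values are listed in that order. No stressor or drug treatment other than cycloheximide is given in the labels, and ages are not given.

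In the integrated stress response, 4 kinases that sense different stresses phosphorylate the initiation factor eIF2, which lowers translation of most mRNAs. A few mRNAs with reading frames upstream of the coding region, among them Atf4, escape this and are translated more. The ATF4 protein then turns on genes for amino acid synthesis and transport, for feedback on the pathway and for cell death. In myeloid cells the pathway also responds to amino acid shortage, which MDSC are known to cause in their surroundings.

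The leaders, the transcript stretches before the coding region, are shown first because upstream start codons are the known control of several members. One annotated transcript per gene was read from GENCODE M21 on GRCm38. Of the 10 genes, 7 had at least 1 upstream ATG, against 50.5% of 11751 tested coding genes with an annotated leader. Each line below gives the 6 bases before a start codon, the codon in capitals and the 4 bases after it, 5′ to 3′.
Atf4 upstream frame of 36 codons: tctctcATGgggc
Atf4 upstream frame of 3 codons: gccaccATGgcgt
Atf4 upstream frame of 59 codons that runs past the main start: taagccATGgcgc
Atf4 main start: cacaacATGaccg
Atf5 upstream frame of 3 codons: cgcgcaATGgctc
Atf5 upstream frame of 58 codons that runs past the main start: gccgccATGgagt
Atf5 main start: acagccATGtcac
Ddit3 upstream frame of 34 codons, first ATG: tatatcATGttga
Ddit3 same upstream frame, second ATG, 31 codons: ttgaagATGagcg
Ddit3 main start: gcagtcATGgcag
Ppp1r15a upstream frame of 45 codons: tggacgATGttgg
Ppp1r15a upstream frame of 34 codons: gattacATGcgat
Ppp1r15a upstream frame of 26 codons: ggcgacATGaacc
Ppp1r15a main start: agacacATGgccc
Psat1 upstream frame of 66 codons that runs past the main start: gaaccaATGgagc
Psat1 main start: agcaccATGgaag

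Atf4 had the longest leader of the members, 594 bases with 3 upstream ATGs. Its last upstream frame starts 97 bases before the main start and ends inside the coding region, and the last frame of Atf5 does the same from 121 bases before. Such a frame keeps ribosomes that read it from the main start. The leader of Ddit3 had 186 bases and 2 upstream ATGs in 1 frame that ends before the main start, and that of Ppp1r15a had 283 bases and 3. Asns carried 2 upstream ATGs in 1 short frame, 14 and 13 codons before its stop, and Sesn2 carried 1 upstream frame of 22 codons. The RefSeq start of Asns, used for promoters below, lies downstream of these 2 ATGs. By that start they would not be in its leader. Trib3, Chac1 and Ddit4 had no upstream ATG in leaders of 176, 174 and 198 bases. The known regulatory frames are those of Atf4, Atf5, Ddit3 and Ppp1r15a; for the others only the letters are described.

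**Figure D1:**
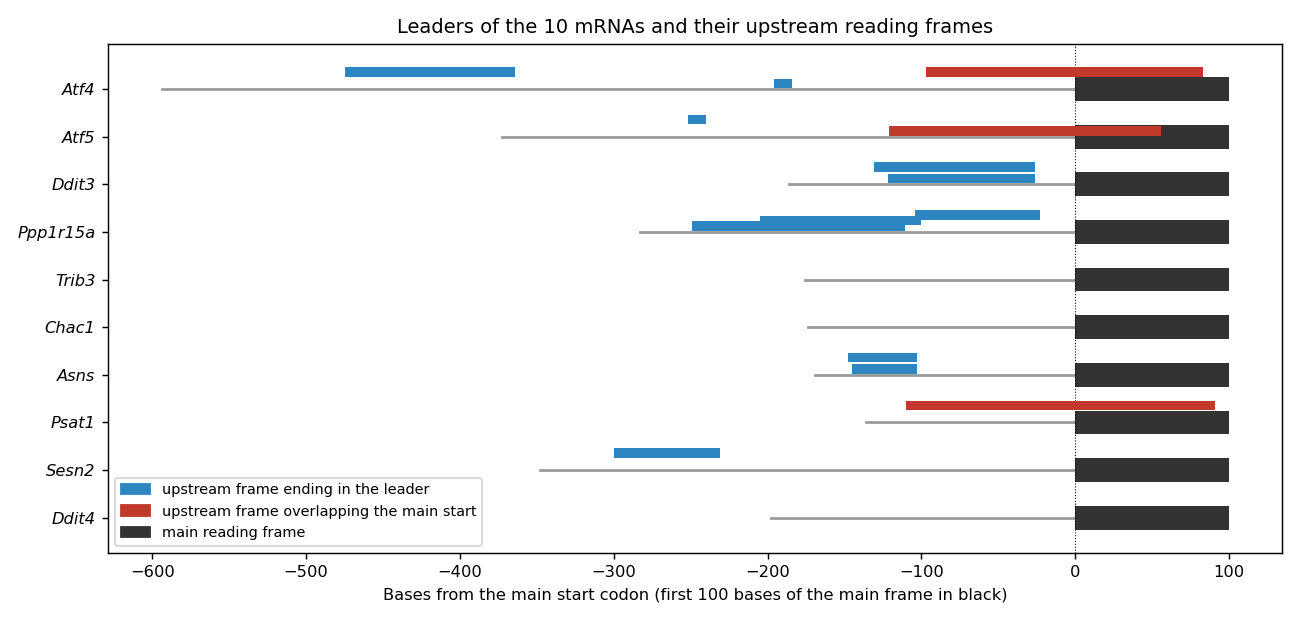
Leaders of the 10 members in GENCODE M21, in bases upstream of the main start codon. Bars are upstream reading frames, placed where they start and end. The frames of Atf4, Atf5 and Psat1 that start closest to the main start run past it, and the leaders of Trib3, Chac1 and Ddit4 hold none.

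The libraries held 8559897 to 26225431 counts. Protein-coding genes took 37.3 to 94.6% of them in sorted cells. In BM they took 1.83 to 3.72% of the polysomal and 0.249 to 0.323% of the total counts, and in the total libraries mitochondrial ribosomal RNA took 57.1 to 65.8%. Levels are given as CPM, the counts after scaling by library size and TMM factor. A level of 1 CPM stood for 18.1 to 110 counts in sorted cells. In BM it stood for 1.73 to 3.51 polysomal and 0.473 to 0.611 total counts. BM total values of the members thus rest on 0 to 16 counts a library. The 10 myeloid markers summed to 1725 to 3877 CPM in sorted cells, none of them at 0, against 310 to 406 CPM in BM total RNA, with up to 3 at 0. In BM polysomal RNA they summed to 928 to 1516 CPM, none at 0. In polysomal RNA 8 markers averaged higher in both sorted cell types than in BM, and 2, S100a9 and Ly6g, averaged lower. By the edgeR test described below, 6 passed as higher and 0 as lower in LY6C cells, and 6 and 1 in LY6G cells. Ly6g overlapped, at 4.62 to 9.69 CPM in BM and 1.43 to 11.7 CPM in LY6G polysomal RNA. S100a9 averaged 811 CPM in BM polysomal RNA, against 268 CPM in LY6G and 403 CPM in LY6C polysomal RNA. Ly6g itself did not separate the sorted groups, at 4.03 ± 4.07 CPM in LY6G total RNA and 3.38 ± 1.34 CPM in LY6C total RNA (SD, n = 3 each).

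Atf4 mRNA, which encodes the transcription factor at the centre of the response (chr15:80255184-80257541, plus strand), was the most abundant of the members per length in both fractions of LY6G cells and in total RNA of LY6C cells. In total RNA it reached 29.7 ± 2.1 CPM per kb of exon in LY6G cells and 25.5 ± 3.2 CPM per kb in LY6C cells (SD, n = 3 each). Next in LY6G total RNA came Atf5 at 10.5 ± 4.7 CPM per kb, a related factor that controls mitochondrial and protein-folding stress genes, and Ddit4 at 5.90 ± 0.55. Ppp1r15a (4.85 ± 1.09 CPM per kb), which directs the phosphatase that reverses eIF2 phosphorylation, and Sesn2 (4.40 ± 0.17), a leucine sensor that restrains mTORC1, followed. Neighbours in this order below Atf4 lay within 1 SD of each other.

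The remaining members were lower per length. Ddit3 encodes CHOP, a factor that promotes death under long stress, and had 2.60 ± 0.96 CPM per kb in LY6G total RNA. Trib3, a pseudokinase that restrains ATF4, had 2.55 ± 1.23 CPM per kb there. The biosynthetic enzymes Psat1, for serine, and Asns, for asparagine, had 2.08 ± 1.23 and 1.92 ± 0.25 CPM per kb. Neighbours among these 4 did not differ beyond their spread. Chac1, which degrades glutathione, was the lowest at 0.586 ± 0.291 CPM per kb. In LY6C total RNA the order differed at the top, with Ddit4 at 13.3 ± 6.3 CPM per kb and Atf5 at 10.1 ± 4.5, which overlap within their spread. In LY6C polysomal RNA Ddit4 averaged 22.1 ± 15.2 CPM per kb and Atf4 17 ± 6.0 CPM per kb, again within their spread.

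**Figure D2:**
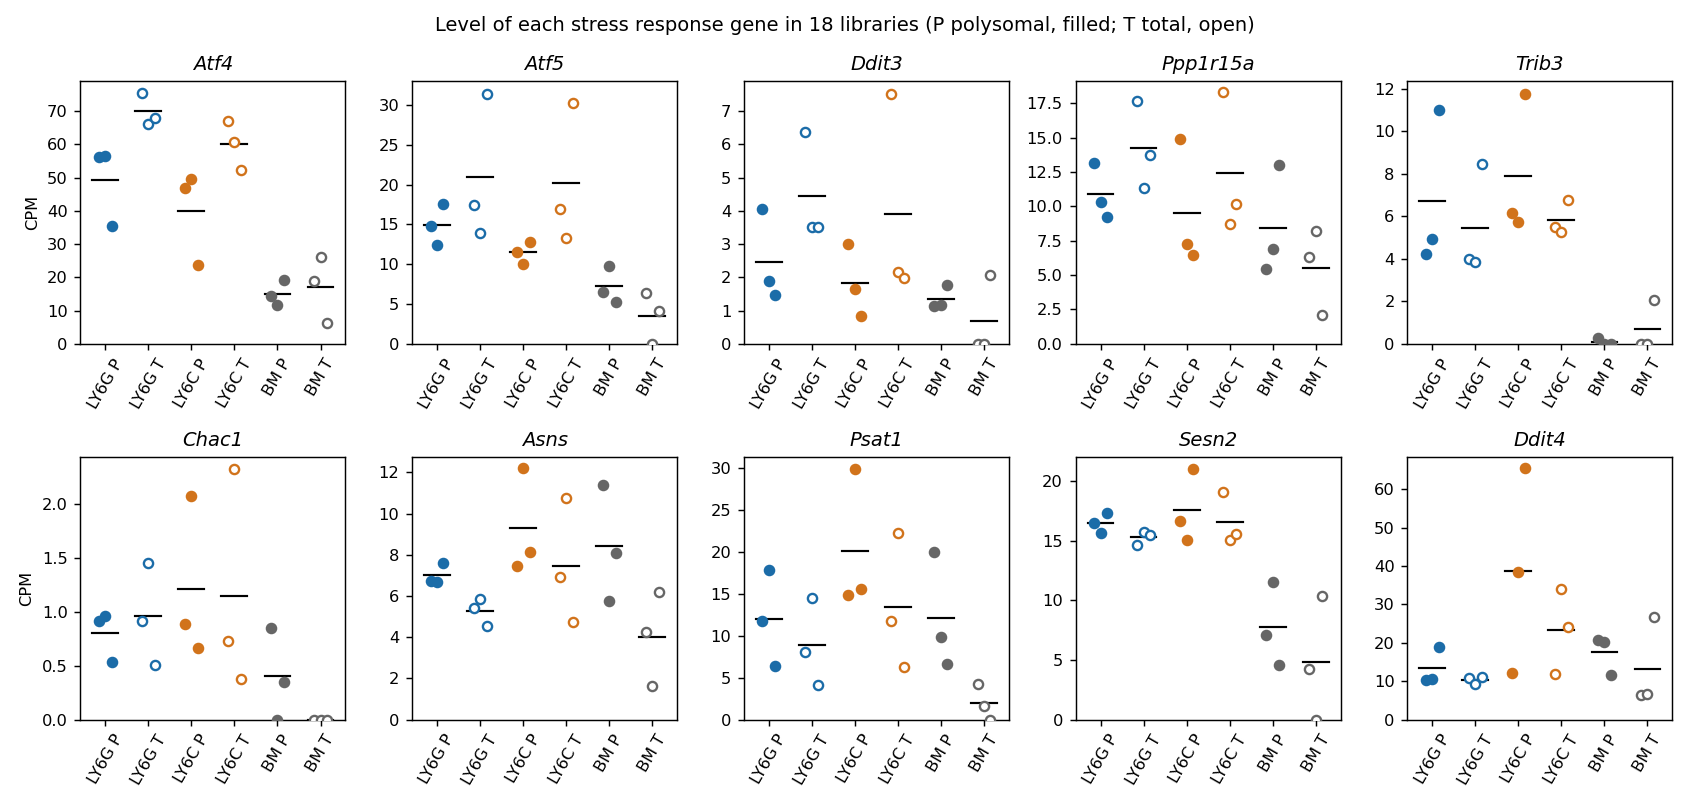
Level of each member in each of the 18 libraries, as TMM-scaled CPM on linear axes from 0, by cell type and fraction. Points are libraries (filled for polysomal, open for total RNA) and lines are group means. Atf4 lies at 23.7 to 75.6 CPM in the 12 sorted libraries, and Ddit4 spreads over 11.8 to 65.5 CPM within LY6C cells.

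LY6G and LY6C cells were compared first, to ask whether the sorted cell types differ in these genes. No member passed the test of edgeR (quasi-likelihood F test, Benjamini-Hochberg adjusted p under 0.05) in total RNA, nor in polysomal RNA. Over all tested genes 0% were called in total RNA and 0% in polysomal RNA, with 565 and 833 genes at an unadjusted p under 0.05, and DESeq2 called 0 in each. A test that misses its threshold does not show that the cells are alike.

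Ddit4 was furthest apart, and was the 1 member at an unadjusted p under 0.05 in each fraction. It encodes a brake on mTORC1 (chr10:59949669-59951834, minus strand). In total RNA it had 10.8, 9.25 and 11 CPM in LY6G cells, against 11.8, 33.9 and 24.2 CPM in LY6C cells. The groups did not overlap, but the LY6C library of number 2 stood close to the LY6G values while numbers 3 and 6 were above them. The log2 difference was −1.17 ± 0.51 (SE, edgeR adjusted p = 1), and −0.76 without the LY6C library of number 3. In polysomal RNA Ddit4 had 10.3, 10.7 and 19.0 CPM in LY6G cells, against 12.1, 38.5 and 65.5 CPM in LY6C cells. Here the groups overlapped, because the LY6C library of number 2 lay below the LY6G library of number 6. That log2 difference was −1.54 ± 0.52 (edgeR adjusted p = 0.841), and −0.92 without the LY6C library of number 6. How many of all genes have groups that do not overlap was not counted, here or in later comparisons.

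Psat1 had 8.04, 14.4 and 4.10 CPM in total RNA of LY6G cells, against 11.7, 22.2 and 6.27 CPM in LY6C cells. Within each number the LY6G value was the lower, while the groups overlapped across numbers, with number 3 highest in both. The log2 differences were −0.59 ± 0.53 in total RNA and −0.74 ± 0.53 in polysomal RNA (edgeR adjusted p = 1 and 0.866). In total RNA it was −0.03 without the LY6C library of number 3 and −1.14 without the LY6G library of number 3. Atf4 had 75.6, 66.2 and 68.0 CPM in LY6G total RNA, against 67.2, 60.8 and 52.3 CPM in LY6C total RNA, with a log2 difference of 0.22 ± 0.35 (edgeR adjusted p = 1). The groups overlapped at the LY6C library of number 2, while within each number the LY6G value was the higher. How many of all genes keep such an order within each number was not counted, for Psat1 or Atf4. Of the other 7 members, the widest total RNA difference was that of Asns, −0.50 ± 0.35, and the widest polysomal difference that of Chac1, −0.59 ± 0.64 (edgeR adjusted p = 1 and 0.926).

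Polysomal RNA was then compared with total RNA in the same cells, which asks how much of each mRNA is carried by several ribosomes relative to its abundance. In both sorted cell types the members split. Atf4, Atf5, Ddit3 and Ppp1r15a had lower values in polysomal than in total RNA, while Asns and Psat1 had higher ones. No member passed the test in either cell type, where 0% of all genes were called in LY6C cells and 0% in LY6G cells. At an unadjusted p under 0.05 stood 433 genes in LY6C cells and 254 in LY6G cells, with 0 members among them, and DESeq2 called 6 and 4 genes.

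For Atf4 the polysomal libraries had 56.2, 56.5 and 35.6 CPM in LY6G cells, against 75.6, 66.2 and 68.0 CPM in total RNA. All 3 polysomal libraries lay under all 3 total libraries, with the polysomal library of number 6 the lowest. The log2 difference was −0.50 ± 0.35 (edgeR adjusted p = 1). In LY6C cells Atf4 had 46.7, 49.7 and 23.7 CPM in polysomal RNA, against 67.2, 60.8 and 52.3 CPM in total RNA. The groups again did not overlap, number 6 again was lowest, and the log2 difference was −0.59 ± 0.35 (edgeR adjusted p = 1). Between fractions too, the share of all genes without overlap was not counted.

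Atf5 had 14.8, 12.5 and 17.6 CPM in polysomal RNA of LY6G cells, against 17.4, 13.9 and 31.4 CPM in total RNA, a log2 difference of −0.48 ± 0.39. In LY6C cells it had 11.5, 10.0 and 12.9 CPM in polysomal RNA, against 16.9, 13.4 and 30.3 CPM in total RNA, a log2 difference of −0.81 ± 0.40 (edgeR adjusted p = 1). The groups overlapped in LY6G cells and did not in LY6C cells, and number 6 had the highest total level in both. Atf5 (chr7:44812256-44816658, minus strand) shares exonic bases with genes on the other strand, as do Ddit3 and Ppp1r15a with neighbours. The strand setting of the counting is not given, so reads of such partners cannot be told apart there.

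Ddit3 (chr10:127290774-127296288, plus strand) stood lowest in polysomal relative to total RNA. It had 4.05, 1.88 and 1.47 CPM in polysomal RNA of LY6G cells, against 6.36, 3.50 and 3.51 CPM in total RNA. In LY6C cells it had 3.00, 1.65 and 0.835 CPM in polysomal RNA, against 7.53, 2.16 and 1.99 CPM in total RNA. The polysomal value of 0.835 CPM rests on 20 counts. Number 2 was the highest library in all 4 groups, so the fractions overlap across numbers although each polysomal library lay under its own total library. The log2 differences were −0.86 ± 0.55 in LY6G cells and −1.09 ± 0.56 in LY6C cells (edgeR adjusted p = 1 each). Among all 14181 genes, 5.9% had a lower value than Ddit3 in LY6G cells and 3.84% in LY6C cells.

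Ppp1r15a (chr7:45522916-45526268, minus strand) had 13.1, 10.4 and 9.26 CPM in polysomal RNA of LY6G cells, against 17.7, 11.3 and 13.8 CPM in total RNA. In LY6C cells the polysomal values were 14.9, 7.23 and 6.47 CPM, against 18.3, 8.75 and 10.2 CPM in total RNA. The fractions overlapped in both cell types, and the log2 differences were −0.39 ± 0.39 in LY6G cells and −0.38 ± 0.40 in LY6C cells (edgeR adjusted p = 1 each).

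The enzymes stood on the other side. Psat1 (chr19:15904678-15947337, minus strand) had 11.8, 17.8 and 6.34 CPM in polysomal RNA of LY6G cells, against 8.04, 14.4 and 4.10 CPM in total RNA. In LY6C cells it had 14.8, 29.8 and 15.5 CPM in polysomal RNA, against 11.7, 22.2 and 6.27 CPM in total RNA. Each polysomal library lay above its own total library, and the log2 differences were 0.43 ± 0.53 and 0.59 ± 0.53 (edgeR adjusted p = 1 each). Asns (chr6:7675169-7693254, minus strand) had 6.73, 6.70 and 7.59 CPM in polysomal RNA of LY6G cells, against 5.41, 5.86 and 4.53 CPM in total RNA. These groups did not overlap, and the log2 difference was 0.41 ± 0.35 (edgeR adjusted p = 1). In LY6C cells the polysomal values of Asns were 7.46, 12.2 and 8.14 CPM, against 6.94, 10.7 and 4.74 CPM in total RNA, with overlap.

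Sorted libraries of 1 number deviated together from their group means, so the fractions were also set side by side within each number. Over the 6 pairs of sorted cells the log2 difference of polysomal minus total RNA was −1.14 to −0.23 for Atf4, −1.23 to −0.16 for Atf5, −1.32 to −0.38 for Ddit3 and −0.65 to −0.13 for Ppp1r15a. These 4 genes, the members with known regulatory upstream frames, lay below 0 in 6 of 6 pairs. Asns lay at 0.10 to 0.78 and Psat1 at 0.30 to 1.3, above 0 in 6 of 6 pairs. Of all 14181 genes, 11.6% lay below 0 in 6 of 6 pairs and 16.8% above 0 in 6 of 6. The same signs held in 6 of 6 pairs for these 6 genes under median-ratio factors and under protein-coding library sizes. The shares of all genes were counted under TMM only. The median polysomal minus total difference of all genes was lower under the other scalings. It was −0.061 in LY6G and −0.07 in LY6C cells with median-ratio factors, and −0.1 and −0.181 with protein-coding sizes. Trib3 was above 0 in 6 of 6 pairs under TMM and median-ratio factors and in 5 of 6 with protein-coding sizes. The counts of pairs above 0 for Ddit4 were 5, 4 and 4 of 6 under those 3 scalings, for Sesn2 4, 3 and 1, and for Chac1 4, 3 and 2. The 6 pairs carry 3 numbers in 2 cell types and are not independent.

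Number 6 held the widest pair for 9 of 10 members in LY6C cells, all but Ddit3. Without number 6 the log2 difference of Ddit4 in LY6C cells was 0.10 ± 0.53, against 0.73 ± 0.51 with it, and that of Trib3 was 0.11 ± 0.44, against 0.43 ± 0.45. Atf4 then stood at −0.33 ± 0.38 in LY6G cells and −0.44 ± 0.38 in LY6C cells, Atf5 at −0.19 ± 0.42 and −0.52 ± 0.42, and Ddit3 at −0.73 ± 0.56 and −1.10 ± 0.57. Mitochondrial ribosomal RNA took a smaller share of counts in the polysomal than in the total library of each of the 6 pairs, with overlapping ranges of 0.313 to 4.65% in polysomal and 1.66 to 30.6% in total libraries. Its part in these differences was not tested.

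**Figure D3:**
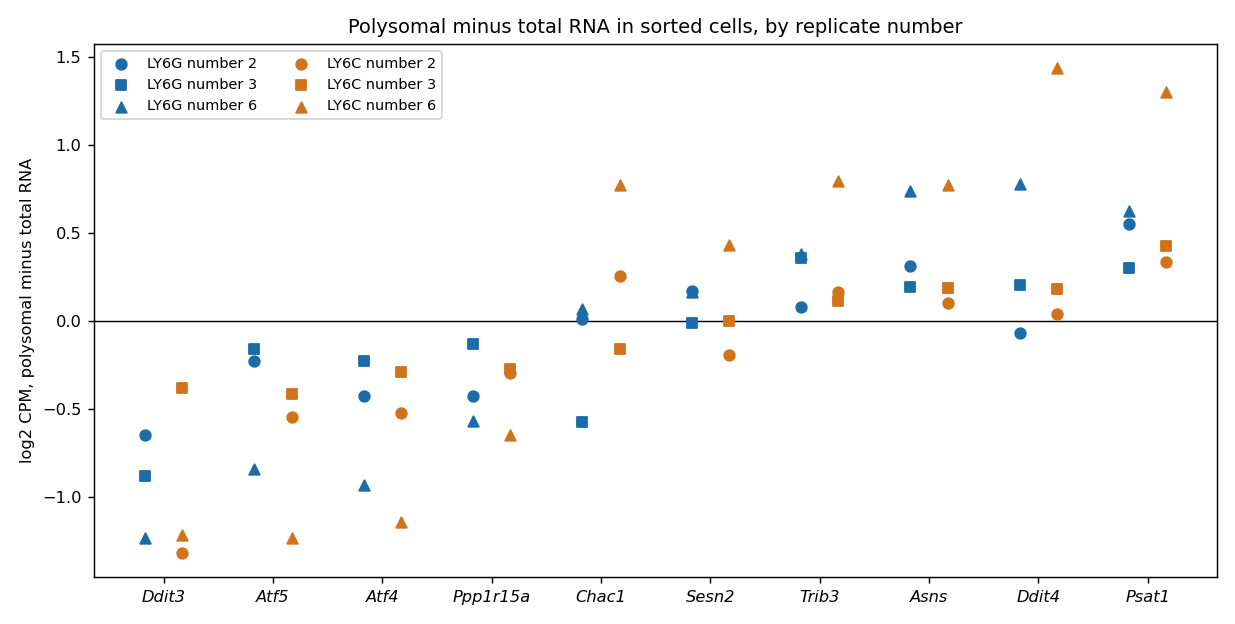
Polysomal minus total RNA for each member, in log2 units, within each replicate number of LY6G and LY6C cells. Symbols are number pairs, and the line at 0 marks equal scaled levels. Atf4, Atf5, Ddit3 and Ppp1r15a lie below 0 in 6 of 6 pairs, and Asns and Psat1 above 0 in 6 of 6.

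Of the 7 members with at least 1 upstream ATG, Atf4, Atf5, Ddit3 and Ppp1r15a lay below 0 in each pair, Asns and Psat1 above 0, and Sesn2 on both sides. Psat1 carries a frame that runs past its main start, as Atf4 and Atf5 do, and stood on the opposite side from them. Across all 11751 coding genes, those with an upstream ATG had a median log2 difference of 0.01 in LY6G cells and −0.01 in LY6C cells. Those without had medians of 0.06 and 0.10. In LY6C cells 49.1% of those with one lay above 0, against 60.7% of those without. These values are given as a description, with no test.

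The polysomal minus total difference was also compared between cell types, which asks whether the share of an mRNA on polysomes differs between them. Between LY6G and LY6C cells the members ranged from −0.38 for Chac1 to 0.33 for Atf5 in log2 units, and 0 of 10 were called. In that comparison 0% of all genes were called, with 7 at an unadjusted p under 0.05 and 0 called by DESeq2. Atf4 stood at 0.08 ± 0.49 and Ddit3 at 0.23 ± 0.78.

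Against BM, 0.338% of all genes were called for LY6C cells and 0.416% for LY6G cells, and again 0 of the 10 members. Atf5 stood furthest among members with more than 3 BM total counts, at −1.94 ± 0.82 in LY6C relative to BM (edgeR adjusted p = 0.293) and −1.61 ± 0.83 in LY6G relative to BM (adjusted p = 0.389). Within BM, 3.39% of all genes were called between polysomal and total RNA and 0 members. The split of those calls turned with the scaling: 368 of 481 were higher in polysomal RNA with TMM, 84 of 199 with protein-coding sizes, 67 of 200 with median-ratio factors and 82 of 500 with DESeq2. For the differences from BM, 12 of 48 calls were higher in LY6C and 14 of 59 in LY6G cells, against 10 of 27 and 12 of 29 with protein-coding sizes, 19 of 34 and 22 of 39 with median-ratio factors, and 153 of 183 and 156 of 203 with DESeq2. Psat1 had 20.0, 9.82 and 6.67 CPM in BM polysomal RNA, against 4.23, 1.64 and 0 CPM in BM total RNA. The groups did not overlap, but the total values are 3 counts in all, and the log2 difference was 2.68 ± 1.02 (edgeR adjusted p = 0.144). Atf4 in BM stood at −0.20 ± 0.43, with the fractions overlapping.

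Sorted cells were last compared with BM, the source tissue of the cultures. Atf4, Trib3 and Sesn2 were higher in both sorted cell types and in both fractions, and Atf5 in total RNA of both. Of 13 alternatives, the Trib3 call in total RNA held in 4 for LY6G and 3 for LY6C cells, and each of the 4 Sesn2 calls in 7 or 8. The LY6C comparison in total RNA called 5 of 10 members, all higher, where 20.5% of all genes were called higher and 7.4% lower. The LY6G comparison in total RNA called 4 of 10, all higher, with 21.5% of all genes higher and 9.39% lower. In polysomal RNA 3 of 10 were higher in LY6C cells, beside 20.2% of all genes higher and 11.2% lower, and 3 of 10 in LY6G cells, beside 22.1% higher and 15.3% lower. The sorted comparisons share their BM libraries. Since these are bulk samples, fewer cells of a type in marrow and less RNA per cell cannot be told apart.

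The whole distribution was shifted. The median log2 difference of all tested genes in total RNA was 1.63 for LY6G cells and 1.65 for LY6C cells, and in polysomal RNA 0.45 and 0.52. With DESeq2 the total RNA medians were 0.32 and 0.18, and with protein-coding library sizes 1.23 and 1.15. The medians of the 10 members were 2.11 and 2.24 for total RNA, and 0.81 and 0.92 for polysomal RNA. Of the genes called in total RNA of LY6C cells, 2913 of 3963 were higher, against 1656 of 3060 with protein-coding library sizes, 2103 of 3359 with median-ratio factors and 2231 of 3921 with DESeq2. For LY6G cells, 3043 of 4374 were higher in total RNA, against 2040 of 3667 with protein-coding sizes and 2679 of 4508 with DESeq2. In polysomal RNA of LY6C cells 2861 of 4453 were higher, against 1821 of 3915 with protein-coding sizes. Marker sums also moved with the comparison. In sorted cells of both fractions and BM polysomal RNA they were 20.3 to 86.9 against 556 to 789 CPM for 9 erythroid markers, of which 2 to 5 were at 0 in each sorted library. The sorted sums were mostly Tfrc, at group means of 27.6 to 49.5 CPM, while each other erythroid marker averaged at most 0.147 CPM. The 6 stromal markers summed to 3.64 to 10.8 against 2007 to 6247 CPM, and 1 or 2 of them were at 0 in each sorted library. B cell markers summed to 0.183 to 5.36 against 78.7 to 93.4 CPM, T and NK markers to 0.332 to 6.72 against 12.3 to 15.0 CPM, and megakaryocyte markers to 12.0 to 342 against 119 to 188 CPM. The part of this makeup in the members' differences was not tested.

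Atf4 in BM had 14.3, 11.6 and 19.3 CPM in polysomal RNA and 19.0, 26.2 and 6.19 CPM in total RNA. Every sorted library lay above every BM library of its fraction, with the LY6C polysomal library of number 6, at 23.7 CPM, closest. The log2 difference in the total fraction was 2.0 ± 0.41 for LY6G cells and 1.78 ± 0.41 for LY6C cells (edgeR adjusted p = 0.00103 and 0.00302). In polysomal RNA it was 1.71 ± 0.37 and 1.40 ± 0.37 (adjusted p = 0.00135 and 0.00686). Relative to the median of all genes, Atf4 in total RNA stood 0.37 higher in LY6G and 0.14 higher in LY6C cells. In polysomal RNA it stood 1.25 and 0.88 higher. With DESeq2, whose medians differ, it stood 1.53 and 1.3 higher in total RNA and 1.33 and 1.02 higher in polysomal RNA. In total RNA it stood 0.365 and 0.131 higher with median-ratio factors, and 0.38 and 0.155 higher with protein-coding sizes. The LY6C polysomal call ended with protein-coding sizes (adjusted p = 0.0531). How many of all genes had every sorted library above every BM library was not counted, for Atf4 or for Sesn2 and Atf5 below.

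Trib3 (chr2:152337422-152344032, minus strand) was close to 0 in BM. It had 1 count in BM polysomal RNA and 1 in BM total RNA, over 3 libraries each. In polysomal RNA of sorted cells it had 4.20, 4.95 and 11 CPM in LY6G cells and 6.13, 5.71 and 11.8 CPM in LY6C cells, with number 6 the highest in both. The ratio of pooled counts to BM was 53.2 for LY6G cells (95% counting interval 9.53 to 2100) and 55.3 for LY6C cells (9.91 to 2190), with edgeR adjusted p of 8.86e-05 and 6.88e-05. In total RNA the ratios were 8.45 (1.51 to 334) and 8.87 (1.59 to 351), with adjusted p of 0.0445 and 0.0398. The total RNA call for LY6G cells ended without LY6G number 6 (0.105) or BM number 1 (0.156) or 2 (0.204). The call for LY6C cells ended without LY6C number 2 (0.0539), 3 (0.0574) or 6 (0.081), or BM number 1 (0.146) or 2 (0.194). Both calls also ended, for LY6G and LY6C cells in turn, with DESeq2 (0.066 and 0.0771), median-ratio factors (0.0633 and 0.0766), protein-coding sizes (0.0778 and 0.0859) and the compared libraries alone (0.0775 and 0.129). The total RNA call held in 4 of 13 alternatives for LY6G cells and 3 of 13 for LY6C cells, and the polysomal calls in 13 of 13. Intervals cover counting error only.

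Sesn2 (chr4:132492032-132510501, minus strand) was even across sorted cells, at 15.6 to 17.4 CPM in LY6G and 15.1 to 21.0 CPM in LY6C polysomal RNA, against 7.13, 11.6 and 4.57 CPM in BM. In total RNA it had 14.6 to 15.8 CPM in LY6G and 15.1 to 19.0 CPM in LY6C cells, against 4.23, 0 and 10.3 CPM in BM. The BM values lay below all sorted values in both fractions. The log2 differences in total RNA were 1.75 ± 0.57 and 1.86 ± 0.57 (edgeR adjusted p = 0.0248 and 0.019), and in polysomal RNA 1.13 ± 0.41 and 1.22 ± 0.41 (0.0343 and 0.0271). Relative to the median of all genes, Sesn2 in total RNA stood 0.12 higher in LY6G and 0.22 higher in LY6C cells. In polysomal RNA it stood 0.68 and 0.70 higher, and with DESeq2 1.31 and 1.42 higher in total RNA. In total RNA it stood 0.12 and 0.228 higher with median-ratio factors, and 0.107 and 0.214 higher with protein-coding sizes. The total RNA calls ended without BM number 1 (0.0854 for LY6G cells and 0.0744 for LY6C cells) or number 2 (0.161 and 0.131). The polysomal call for LY6G cells ended without LY6G number 2 (0.0731), 3 (0.0606) or 6 (0.0723), or BM number 1 (0.105) or 3 (0.162). That for LY6C cells ended without LY6C number 6 (0.0736) or BM number 1 (0.111) or 3 (0.173). With protein-coding sizes the calls of both cell types ended in total RNA (0.105 for LY6G cells and 0.11 for LY6C cells) and in polysomal RNA (0.0848 and 0.156). In the compared libraries alone the total RNA calls ended (0.0805 and 0.18), as did the LY6C polysomal call (0.0511), and with median-ratio factors the LY6C total RNA call ended (0.056).

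Atf5 in BM total RNA had 6.35, 0 and 4.13 CPM, 5 counts in all, against 13.4 to 31.4 CPM across the sorted total libraries. The log2 differences were 2.69 ± 0.65 for LY6G cells and 2.64 ± 0.65 for LY6C cells (edgeR adjusted p = 0.0036 and 0.0049). The LY6C call ended in the compared libraries alone (0.0515). Its polysomal level in BM, 6.56, 9.82 and 5.27 CPM, lay under all sorted libraries too, but by less. Those log2 differences were 1.08 ± 0.44 and 0.70 ± 0.44 (adjusted p = 0.0585 and 0.239). The LY6G polysomal difference was called by DESeq2 (1.31, adjusted p = 0.00971), with median-ratio factors (0.0287), with no filter (0.0204), in the compared libraries alone (0.0155) and without BM number 2 (0.0471).

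Psat1 in total RNA was called for LY6C cells and not for LY6G cells. BM had 3 counts, and the ratio of pooled counts was 4.48 for LY6G cells (95% counting interval 1.53 to 21.7, edgeR adjusted p = 0.113) and 6.33 for LY6C cells (2.16 to 30.7, adjusted p = 0.041). The LY6C call ended without LY6C number 2 (0.0527) or 3 (0.127), or BM number 1 (0.0606), 2 (0.161) or 3 (0.171). It also ended with median-ratio factors (0.0705), protein-coding sizes (0.123) and the compared libraries alone (0.0763). With no filter on low counts the LY6G difference was called (2.28, adjusted p = 0.0214). In polysomal RNA Psat1 overlapped with BM, at −0.04 ± 0.56 for LY6G cells and 0.70 ± 0.56 for LY6C cells.

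The other members gave no call against BM with the model as fitted to all libraries. Under alternatives, Ddit4 in LY6C polysomal RNA was called with no filter on low counts (1.2, adjusted p = 0.0266) and without LY6C number 2 (1.57, 0.0226). Ddit3 had 1 count in BM total RNA, a ratio of 7.28 for LY6G cells (1.3 to 288) and 9.44 for LY6C cells (1.69 to 373), with adjusted p of 0.124 and 0.163. Chac1 had 0 counts in BM total RNA, where 3 counts would be 1.91 CPM, above its group means in sorted total RNA. Ppp1r15a differed by 1.33 ± 0.58 in LY6G and 1.13 ± 0.58 in LY6C total RNA (adjusted p = 0.0904 and 0.161). Relative to the median of all genes these were −0.30 and −0.51, and 0.87 and 0.68 with DESeq2. They were −0.305 and −0.492 with median-ratio factors, and −0.295 and −0.494 with protein-coding sizes. Asns ranged from −0.29 to 0.95 over the 4 comparisons. Ddit4 lay at −0.33 and −0.39 in LY6G cells and at 0.84 and 1.14 in LY6C cells, for total and polysomal RNA in turn.

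**Figure D4:**
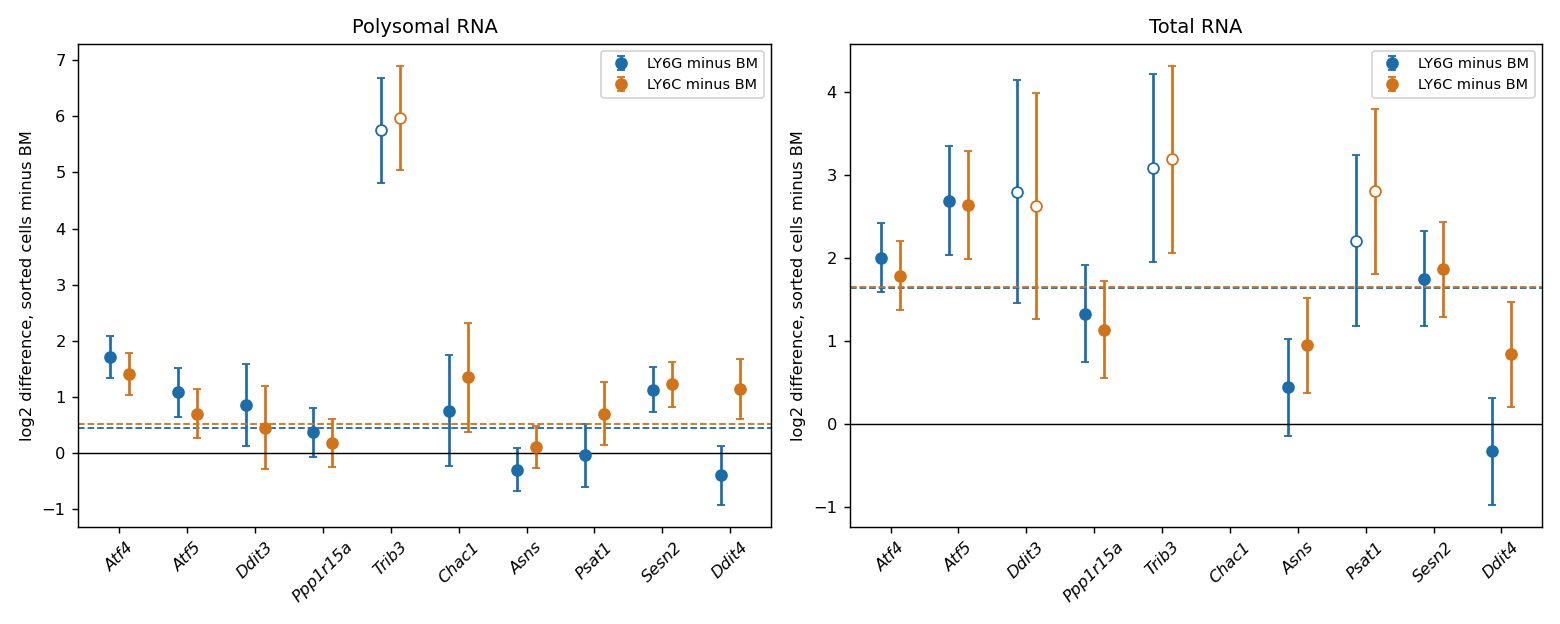
Log2 difference of sorted cells minus BM for each member, in polysomal and total RNA, with standard errors. Dashed lines mark the median of all tested genes, open points are genes with 1 to 3 counts in the BM group, and Chac1 is left out of total RNA, where BM had 0 counts. Atf4 lies above both dashed lines in both panels, and Ddit4 lies below 0 in LY6G cells and above 0 in LY6C cells.

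Other genes of the pathway were counted in 3 groups. Of 16 regulators (the eIF2 kinases, eIF2 subunits and their partners), 4 were higher and 2 lower in LY6G total RNA against BM, and 4 higher and 0 lower in LY6C total RNA. In polysomal RNA 3 were higher and 2 lower in each. Of 4 partner factors of ATF4, 2 were higher in each comparison with BM. Of 24 tested target genes, 9 were higher and 1 lower in total RNA of each cell type, and in polysomal RNA 7 were higher and 3 lower in LY6G cells and 8 and 2 in LY6C cells. Over all tested genes, 21.5% were higher and 9.39% lower in LY6G total RNA, 20.5% and 7.4% in LY6C total RNA, 22.1% and 15.3% in LY6G polysomal RNA, and 20.2% and 11.2% in LY6C polysomal RNA. No gene of these lists was called between LY6G and LY6C cells or between the fractions.

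Cebpb, a factor that pairs with ATF4 and drives myeloid differentiation, had 230 ± 35 CPM in LY6G total RNA and 229 ± 47 CPM in LY6C total RNA, against 10.2 ± 9.6 CPM in BM (SD, n = 3 each). The log2 differences were 4.54 ± 0.51 and 4.53 ± 0.51 (edgeR adjusted p = 1.95e-06 and 2.56e-06). In polysomal RNA they were 3.42 ± 0.43 and 3.34 ± 0.43 (6.18e-06 and 9.65e-06). Atf3, a stress-induced partner factor, had 69.1 ± 18.7 CPM in LY6G and 44.9 ± 21.8 CPM in LY6C total RNA, where BM had 1 count, for ratios of 109 (95% counting interval 19.6 to 4320) and 90.7 (16.3 to 3580). In polysomal RNA, where BM had 2 counts, the ratios were 274 (76 to 2270) and 234 (64.7 to 1930).

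Slc7a11, the cystine importer, had 204 ± 56 CPM in LY6G total RNA and 95.3 ± 56.9 CPM in LY6C total RNA, and 0 counts in BM. With the BM group set at 3 counts it was at least 106-fold and at least 49.8-fold higher in total RNA. Such bounds cover counting error only and not the scaling of BM. In polysomal RNA, where BM had 23 counts, Slc7a11 had 2.58 ± 2.72 CPM in BM. Against that it had 151 ± 25 CPM in LY6G and 91.3 ± 44.9 CPM in LY6C cells. Eif2ak2, the kinase that senses double-stranded RNA, was higher in polysomal RNA of LY6G cells by 4.14 ± 0.60 (edgeR adjusted p = 2.43e-05). In LY6C total RNA its ratio to the 1 BM count was 30.1 (5.39 to 1190). Impact, an inhibitor of the amino acid sensing kinase, had 0 counts in BM total RNA and was at least 9.01-fold higher in LY6G cells. In polysomal RNA it had 2.16 ± 1.83 CPM in BM, against 11.7 ± 1.05 CPM in LY6G cells. Slc3a2, the shared heavy chain of amino acid transporters, was higher in polysomal RNA of LY6C cells, at 119 ± 85 CPM against 11.4 ± 3.2 CPM in BM (log2 difference 3.37 ± 0.50, adjusted p = 4.77e-05).

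Slc6a9, a glycine transporter gene that red cell precursors also use, went the other way. It had 0.797 ± 0.120 CPM in LY6G polysomal RNA and 0.591 ± 0.324 CPM in LY6C polysomal RNA, against 10.2 ± 3.7 CPM in BM. The log2 differences were −3.68 ± 0.53 and −4.15 ± 0.55 (edgeR adjusted p = 2.26e-05 and 1.22e-05). The erythroid marker sums given above differ in the same direction between sorted cells and BM, and their part here was not tested.

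Promoters were read for the short site to which ATF4 and C/EBP factors bind as pairs, since several target genes are known to carry it. The core TGATGNAA was searched on both strands of the RefSeq windows (GRCm38.p6) from 250 bases before to 50 after each start. It lay in 3 of the 12 windows of the 10 members, in 3 different genes, and in 3.97% of all 32851 windows. The 30 bases around each match are printed on the strand of the gene, with the match in capitals.
Chac1, chr2:119351038-119351067, plus strand: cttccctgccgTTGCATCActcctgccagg
Trib3, chr2:152344028-152344057, minus strand: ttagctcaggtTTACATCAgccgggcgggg
Asns, chr6:7693214-7693243, minus strand: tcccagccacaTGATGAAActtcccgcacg

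The core reads on the opposite strand in Chac1 and Trib3 and on the strand of the gene in Asns. It starts 193 bases before the start in Chac1 and 23 before it in Asns, and 14 bases after it in Trib3. In Asns the match overlaps the 2 upstream ATGs described above, because the GENCODE transcript starts further upstream than the RefSeq start. Whether these bases are transcribed in these cells was not tested. Of these 3 genes, Trib3 was called against BM and Asns was not. Chac1 had 4 counts in BM polysomal RNA, and its log2 differences there were 0.76 ± 0.98 for LY6G cells and 1.35 ± 0.97 for LY6C cells (edgeR adjusted p = 0.556 and 0.307). The ER stress response element was found in 0 of the 12 windows of the 10 members and in 0.119% of all windows. A match describes letters and not binding, and a missing match says only that these letters are not in the window.

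Over the 12 sorted libraries, the genes most like Atf4 by Pearson r of log2 CPM, among 4285 genes of at least 10 CPM, were Mapkapk2 (0.957), Ei24 (0.948) and Etf1 (0.939). Those most like Ddit3 were Egr1 (0.940), Cd24a (0.930) and Nufip2 (0.919). Among the members, Ddit3 followed Ppp1r15a at 0.93 and Atf4 at 0.82, and Atf4 followed Ppp1r15a at 0.69. Trib3, Ddit4 and Sesn2 ran against Atf4, at −0.77, −0.70 and −0.69. The libraries share replicate numbers and fractions, so these coefficients describe the 12 libraries only.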

How the data were processed

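The authors deposited raw read counts per gene for 18 libraries. FastQC, STAR 2.5.2a, DESeq, DESeq2 and GRCm38 come from the submitters' processing notes. The counting program, annotation and strand setting are not given in the sources used here. GENCODE M21 named 54809 of 54838 rows and left 29 unnamed.

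Counts were fitted with edgeR 4.0.16 in R 4.3.3. All 18 libraries entered 1 model of 6 group means, without a block, after filterByExpr (minimum count 10) and TMM scaling. Standard errors and p-values between fractions therefore do not use the pairing of sorted libraries by number, except where a block is named. Robust quasi-likelihood F tests were adjusted by the Benjamini-Hochberg method over 14181 genes in each of 12 comparisons, and called at an adjusted p under 0.05. Log2 CPM used a prior count of 2. With 0 counts in a group, 3 counts served as the floor, and with 1 to 3 counts an exact 95% interval is given. The fit was tested on simulated data.

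The 10 members were named in each comparison, with up to 4 called pathway genes of smallest p and the 3 genes most like Atf4 and Ddit3. Members and lists were chosen with earlier results of these data known. Leader transcripts (APPRIS, then support level, then length) were chosen after seeing the sequences. Alternatives were DESeq2 1.42.0, median-ratio factors, protein-coding library sizes, no filter, the compared libraries alone, the replicate number as a block, and each library left out in turn. The block in the compared libraries alone, number 6 left out and the scaling of number pairs were added after seeing the data.

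Pairing rests on the numbers in the sample names. Deviations of same-numbered libraries correlated at 0.56 to 0.74 between fractions of sorted cells. They correlated at 0.42 to 0.59 between LY6G and LY6C total RNA and at 0.27 to 0.47 in polysomal RNA, all over 0.1. Libraries of unlike number reached 0.28 between fractions of LY6G cells and 0.15 between LY6G and LY6C total RNA, below the same number each time. For polysomal RNA of LY6G number 2, an LY6C library of another number was higher, at 0.36 against 0.27. Sorted libraries were taken as paired by number, with that exception. BM fractions gave 0.00 to 0.03 at low depth, which does not decide their pairing. The labels do not say whether replicates come from separate mice throughout, so p-values measure the spread between these samples.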

Additional observations from a re-analysis of the deposited data

How the results depend on the processing

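Depth limits the comparisons with BM, whose total libraries hold 0.473 to 0.611 counts per CPM. The counts of members called in total RNA were 4 for LY6G cells and 5 for LY6C cells against BM. They were 2 and 2 with protein-coding library sizes and 2 and 1 in the compared libraries alone. With the replicate block in the compared libraries alone they were 1 and 0, and median-ratio factors gave 3 and 2. Of all 14181 genes, 4374 and 3963 were called in the model as fitted to all libraries. Protein-coding sizes gave 3667 and 3060, and median-ratio factors 4057 and 3359. Leaving out 1 library gave 2 to 4 members for each cell type. The LY6G count was 2 without BM library 1 or 2, and the LY6C count 2 without BM library 1 or 2 and 3 without LY6C library 2 or 3. In polysomal RNA the count of 3 for LY6C cells was 1 with protein-coding sizes, and leaving out 1 library gave 2 to 4 for both cell types. There 4453 of all genes were called in LY6C cells, and 3915 with protein-coding sizes. For the compared libraries alone and libraries left out, calls over all genes are not given here, so the member counts stand without that background.

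With the replicate number as a block, 5 members were called in total RNA of each cell type, 4 in LY6C and 3 in LY6G polysomal RNA, and 1 (Psat1) between the BM fractions, where 0 were called without it. Calls over all genes with either block are not given here, so the member counts stand without that background. The labels do not tie sorted numbers to BM numbers, and the pairing of BM fractions is undecided. The block added Psat1 in LY6G total RNA (2.98 ± 0.74, adjusted p = 0.00391) and LY6C polysomal RNA (1.67 ± 0.41, 0.00349) and between BM fractions (2.66 ± 0.65, 0.0273). It also added Ddit3 in LY6G total RNA (3.0 ± 1.12, 0.045), ended Trib3 there (0.0701) and changed no other call of a member. With the block in the compared libraries alone, only the Psat1 call in LY6C polysomal RNA was added (0.0473). There the total RNA calls against BM ended for Psat1 (0.242), Atf4 (0.124) and Atf5 (0.324) in LY6C cells, for Atf5 in LY6G cells (0.0817), and for Trib3 (0.727 in LY6G and 0.825 in LY6C cells) and Sesn2 (0.362 and 0.63), as did the Sesn2 call in LY6C polysomal RNA (0.17). Between LY6G and LY6C cells and between their fractions, 0 members were called in any alternative run. With the block Ddit3 stood at −0.95 ± 0.29 in LY6G and −1.0 ± 0.31 in LY6C cells between fractions (adjusted p = 0.488 and 0.548).

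Of 1890 gene values under alternatives, 1817 kept their side of the threshold and were not counted as reversed, 56 lost a call, 13 gained one and 4 reversed. Trib3 between BM fractions was −2.36, and 5.64 without BM total library 3, which holds its only count there. Leaving out 1 library gave −8.06 to 5.64. Its LY6G and LY6C differences from BM in that contrast were 2.67 and 2.79, with ranges of −5.29 to 8.41 and −5.23 to 8.47, the lowest without that same library. Chac1 between BM fractions was 7.49, and −0.019 with DESeq2, where BM total RNA has 0 counts. Among the 1817, 138 changed sign from a value no larger than its standard error in the model as fitted to all libraries. Trib3 in polysomal RNA was called in all 13 alternatives for both cell types, and Atf4 in 12 or 13 of 13 in each comparison with BM.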
